A study of Homo sapiens with 16 samples.

Results

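The comparison set SH-SY5Y cultures that grew in a silk-collagen scaffold and received MPP against scaffold cultures left untreated, over every gene measured. SH-SY5Y is a cloned human neuroblastoma line of sympathoadrenal character, and MPP (1-methyl-4-phenylpyridinium) is the complex I inhibitor formed in the body from the parkinsonian toxin MPTP. The 8 libraries, 4 untreated 3D and 4 MPP 3D, were chosen by their labels and are 8 of the 16 in the series. All cultures were differentiated for 15 days toward dopamine-like neurons, and MPP was present at 1 mM for the last 48 h. The other 8 libraries, 4 untreated 2D and 4 MPP 2D, came from the same line on flat dishes with the same dose and duration. Their effect is reported only where it is set against the effect in 3D. They also entered the filter and the estimate of spread per gene behind every limma call in 3D. With only the 3D libraries fitted, 4498 genes were called in 3D in place of 5879. The log2 changes in 3D and in 2D share no library, only that estimate of spread. Every group is the same single cell line with no genotype or strain given, scaffolds were frozen whole, and 2D cells were detached with Accutase first.

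RNA was poly-A selected. Recovered reads came to 24589435 to 34658873 in the untreated 3D libraries and 36554574 to 38414859 with MPP, so the untreated libraries were all shallower. On a principal component analysis of the 8 libraries the first component, 41.4% of the variance, held the MPP libraries at 41.0 to 49.0 and the untreated ones at -52.1 to -38.4. Untreated replicate 3 lay apart on the second component (15.5%), at -56.3, and MPP replicate 3 on the third (11.4%), at 49.0. Untreated replicate 1 had the highest share of mitochondrial reads. Whether the 4 libraries of each group were grown as separate cultures is not given in the labels, and the p-values then measure spread between libraries that may be technical. Of the markers of the labelled cell type, TH, DDC and SLC18A2 were detected in every 3D library, while the dopamine transporter SLC6A3 and the midbrain regulators FOXA2, LMX1A, EN1 and OTX2 are not analysed here.

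MPP enters cells that carry monoamine or organic cation transporters, gathers in mitochondria and blocks the first complex of the respiratory chain, which lowers oxygen use and ATP made by respiration. Cells commonly answer such a block through the integrated stress response, in which the transcription factor ATF4 raises amino acid synthesis and transport genes. Oxygen supply is read by prolyl hydroxylases of the EGLN family, which mark the HIF transcription factors for degradation when oxygen is present. HIF raises glycolytic enzymes, VEGFA and other genes of low oxygen.

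Values below are normalised read counts, that is read counts divided by 1 size factor per library, as mean ± SD over n = 4 libraries unless all 4 are listed, in the order of replicates 1 to 4. Log2 changes come from limma on log2(value + 1), MPP minus untreated, and a gene is said to have risen or fallen where its Benjamini-Hochberg adjusted p was under 0.05. In bulk RNA, fewer cells of a type and less RNA per cell cannot be told apart. Of 16984 genes tested, 5879 (34.6%) changed in 3D, 2882 upward (17.0%) and 2997 downward (17.6%), around a median log2 change of 0.00 over all genes. At least 2-fold changes were more often downward, with 688 genes (4.05%) against 425 upward (2.5%), and at 4-fold or more the counts were 212 and 97. The shares of 17.0% upward and 17.6% downward are the background for the list counts below. The 4 MPP values all lay above the 4 untreated values for 13.5% of genes and all below for 14.1%. The upward share of calls was 49.0%, and it became 66.0% when libraries were scaled to equal totals (median log2 change 0.097) and 59.3% when scaled to equal nuclear totals (0.061). The mitochondrial reads that MPP lowered are counted in library totals but not in nuclear totals, and what moved these shares was not tested.

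**Figure D1:**
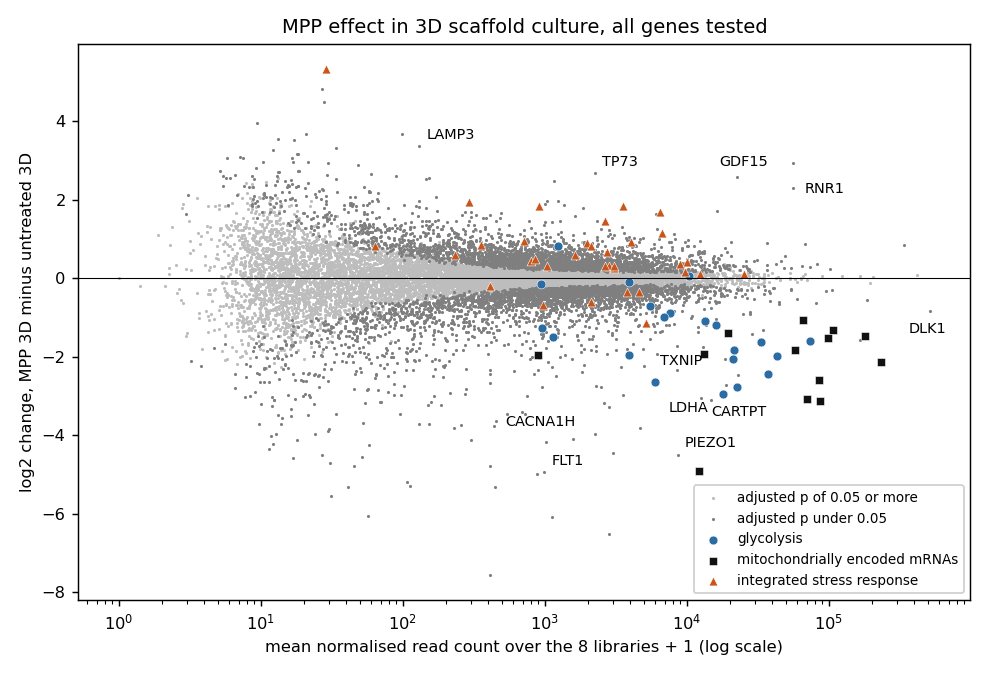
Each point is 1 of the 16984 genes tested, with its mean normalised read count over the 8 libraries plus 1 on a log axis and its log2 change (MPP 3D minus untreated 3D) on the vertical axis. The 13 mitochondrially encoded mRNAs (black squares) all lie below 0, as do 19 of the 21 glycolysis genes (blue circles), while most integrated stress response genes (orange triangles) lie above it.

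Glycolysis genes fell along the whole pathway. Of 21 members tested, 17 fell and 1 rose, with a median log2 change of -1.50, where 17.6% of all genes fell. LDHA, which turns pyruvate into lactate, stood at 28693, 32441, 33320.0 and 32619 untreated and 3912, 3961, 4389 and 4152 with MPP. HK2, the hexokinase that traps glucose in the cell, stood at 9517, 11827, 10673 and 9215 and then 1507, 1621, 1913 and 1617. PGK1, the first ATP-forming enzyme of the pathway, went from 28976, 35148, 38908 and 33581 to 7936, 8230.2, 8080.2 and 8545. In none of these 3 genes did the groups overlap, and the lowest untreated library stood well above the highest MPP library. On the log2 scale LDHA fell by 2.95 ± 0.07 (SE), HK2 fell by 2.63 ± 0.08 (SE) and PGK1 fell by 2.05 ± 0.07 (SE), with limma adjusted p of 2.12e-18, 1.37e-16 and 5.66e-16.

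The enzymes between them moved with them. GPI, which isomerises glucose 6-phosphate, fell from 39312 ± 4457 to 5755 ± 76.3, and the aldolases ALDOA and ALDOC fell by 2.44 and fell by 1.94 in log2. TPI1, GAPDH, ENO1 and PKM, of the later steps to pyruvate, changed by -1.82, -1.59, -1.97 and -1.63. The falls were smaller for HK1 (-0.70), the phosphofructokinase subunit PFKL (-0.87) and PGAM1 (-0.97), and all 7 passed the test. PFKFB3 and PFKFB4, which make the fructose bisphosphate that activates phosphofructokinase, fell from 1335 ± 136 to 563 ± 113 and from 1689.7 ± 130.3 to 601 ± 72.5. PFKFB2, of the same family, rose by 0.82 ± 0.09 (SE) and was the sole member to rise (limma adjusted p = 1.71e-07). With equal library totals 2 members rose. LDHB, PFKM and BPGM did not pass, at log2 changes of 0.06, -0.10 and -0.15, and the second riser with equal library totals was LDHB.

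**Figure D2:**
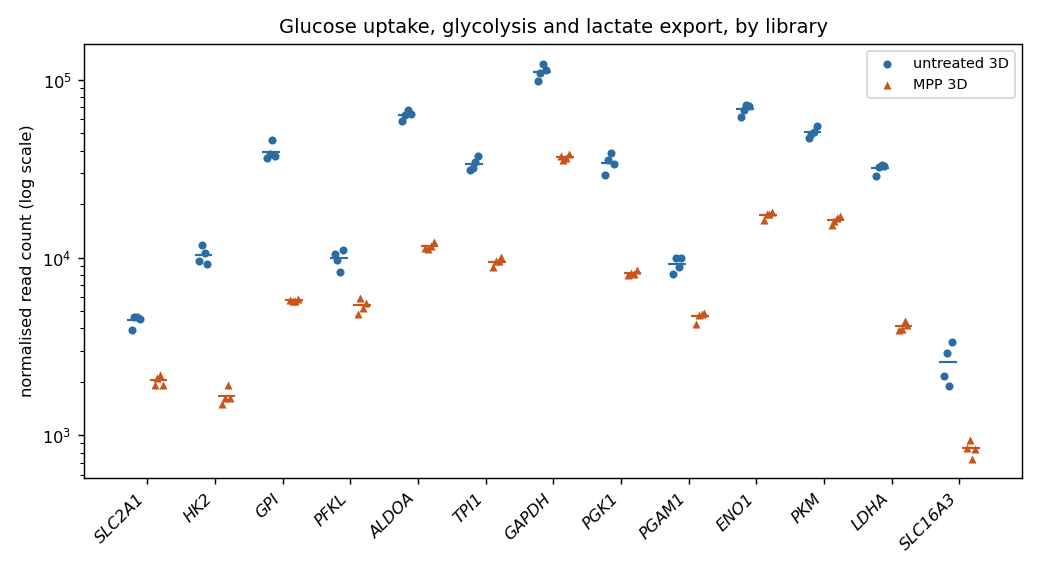
Normalised read counts on a log axis for glucose uptake (SLC2A1), 11 glycolytic genes in pathway order and lactate export (SLC16A3), with 1 point for each of the 4 untreated 3D (blue circles) and 4 MPP 3D libraries (orange triangles) and a bar at each group's mean. In every gene shown all 4 MPP libraries lie below all 4 untreated ones.

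Glucose and lactate carriers followed in part, with 3 of 11 lower and 0 higher. SLC2A1, the main glucose importer, stood at 3935, 4647, 4637 and 4513 and with MPP at 1916, 2112, 2185 and 1929.9. SLC16A3, the lactate exporter MCT4, fell from 2582 ± 676 to 845 ± 84.4. SLC2A3, a neuronal glucose importer, was the third to fall (-1.02), and that call was lost in 2 alternatives, at a limma adjusted p of up to 0.0536. Without MPP replicate 2 the carriers that fell numbered 5. Of 15 genes that govern pyruvate entry into mitochondria, 4 fell and 3 rose. PDK1, a kinase that shuts off pyruvate dehydrogenase, fell by 1.47 ± 0.11 (SE). Pyruvate carboxylase PC and the mitochondrial PEP carboxykinase PCK2 rose by 0.90 and 1.47.

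HIF binds a core of 5 bases, ACGTG or GCGTG, and promoter windows were read for the form ACGTG only. A window with GCGTG alone is therefore counted as without a match. Windows of 300 bases, 250 before and 50 after a gene's start, came from a RefSeq table of GRCh38.p14, and ACGTG was searched on both strands. It was in 21.6% of all 27305 windows and in 25.2% of those of tested genes. Of the 17 glycolysis genes that fell, all had a window and 8 (47.1%) held it, as did 1 of the 3 with a window that did not pass (33.3%). The stretches below are shown because these are genes of large fall whose windows hold ACGTG. Capitals mark ACGTG or, on the other strand, CACGT, and both overlap in CACGTG.
LDHA (chr11:18394358-18394514, plus strand): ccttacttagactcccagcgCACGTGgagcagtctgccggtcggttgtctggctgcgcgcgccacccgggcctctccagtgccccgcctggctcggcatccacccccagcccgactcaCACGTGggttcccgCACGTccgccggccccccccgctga
PGK1 (chrX:78104026-78104089, plus strand): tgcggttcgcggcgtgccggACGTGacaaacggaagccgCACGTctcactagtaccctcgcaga
GPI (chr19:34364810-34364854, plus strand): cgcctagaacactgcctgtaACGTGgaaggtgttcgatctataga
BNIP3 (chr10:131982032-131982077, minus strand): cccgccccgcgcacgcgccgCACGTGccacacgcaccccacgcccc
AQP10 (chr1:154320984-154321040, plus strand): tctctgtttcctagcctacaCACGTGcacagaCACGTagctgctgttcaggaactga
LDHA held 5 matches in its window and PGK1 3, of which 2 are in the stretch shown. Of genes that rose in lists taken up below, ACGTG was in 3 of 6 serine, glycine and one-carbon genes with a window (50%). It was in 4 of 13 cholesterol synthesis genes (30.8%), 2 of 9 cytosolic synthetases (22.2%) and 2 of 22 stress response genes (9.09%). A match is a description of letters and shows neither binding nor a cause.

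Genes of the low-oxygen response outside glycolysis also fell. Of 32 tested, 25 fell and 0 rose, at a median of -1.06. Without untreated replicate 1, or without MPP replicate 3, 1 member rose. ACGTG was in the promoter window of 14 of the 20 that fell and had one, and of 4 of the 7 that did not pass (57.1%), against 25.2% for tested genes. VEGFA, the growth factor of blood vessels, stood at 46888, 35444, 35928 and 35993 and with MPP at 7513, 7671, 6222 and 6563. BNIP3, which marks mitochondria for removal and whose promoter stretch is shown above, fell from 8602 ± 739 to 3303 ± 176. NDUFA4L2, a mitochondrial protein made in low oxygen, fell from 4674 ± 295 to 528 ± 129. Their log2 changes were -2.46, -1.38 and -3.18, and the groups overlapped in none of the 3.

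Further members spanned secreted factors and enzymes. EPO, the red cell hormone, stood at 203, 207, 171 and 239 and with MPP at 10.8, 3.57, 5.56 and 1.84. The carbonic anhydrase CA9 was at 30 ± 14.6 and 14.1 ± 2.86 and did not pass. P4HA1, which hydroxylates collagen, and LOX, which crosslinks it, fell by 1.81 and fell by 1.07. COX4I2, the low-oxygen isoform of a cytochrome oxidase subunit, fell from 238 ± 30.6 to 20.6 ± 12.3, whereas the common isoform COX4I1 changed by -0.03 and did not pass.

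The oxygen-sensing genes themselves were mixed, with 2 of 16 higher and 5 lower (3 lower with equal library totals). HIF1A mRNA rose. It stood at 6139.9, 7154, 8666 and 5396 untreated and 12144, 10198, 12797 and 11384 with MPP, without overlap (log2 0.78, limma adjusted p = 4.19e-06). Its partner ARNT2 rose by 0.52. EGLN1 and EGLN3, the prolyl hydroxylases and themselves HIF targets, fell by 0.94 and fell by 0.79. EPAS1, which encodes HIF-2 alpha, changed by -0.29 (limma adjusted p = 0.0188), a call that 5 alternatives lost, at up to 0.115. HIF1AN, a further oxygen sensor that acts on HIF, fell by 0.35. Of the VEGF ligands and receptors 5 of 10 fell and 0 rose (3 fell without untreated replicates 1 and 3). The receptor FLT1 stood at 1631, 1927, 2323 and 1779 and then 48.8, 51.8, 73.2 and 75.5. NRP1, a co-receptor, fell by 2.26.

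Transcripts of the mitochondrial genome changed in opposite directions. All 13 mRNAs fell, at a median of -1.94, and the 2 ribosomal RNAs rose. The 13 mRNAs held 6.84%, 3.30%, 3.89% and 3.85% of reads in the untreated libraries and 1.52%, 1.15%, 1.27% and 1.04% with MPP. The means were 4.47% ± 1.61 and 1.245% ± 0.207 (SD, n = 4), an exact two-sided permutation p of 0.0286, the smallest that 4 against 4 can give. Without untreated replicate 1, the high one, the untreated mean was 3.68%. COX3, a cytochrome oxidase core subunit, stood at 225836, 121789.5, 129148 and 146338 and then 20784, 16147, 17498 and 15205. CYTB, the complex III subunit, fell from 126244 ± 48455 to 14407 ± 2716. ND3, a small complex I subunit, had the deepest fall, from 23714 ± 4858 to 777 ± 84.7 (log2 -4.91), and ND5, another complex I subunit, the shallowest (-1.05).

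RNR1, the small mitochondrial rRNA, stood at 26712, 15932, 15678 and 18720.0 and with MPP at 84636, 93179.8, 103697 and 91456, without overlap. RNR2, the large one, rose by 0.86 ± 0.16 (SE) (limma adjusted p = 0.000244). In 2D both fell, with log2 changes of -0.58 and -1.38, and the effects differed by 2.89 ± 0.18 (SE) and 2.24 ± 0.23 (SE), 3D minus 2D (limma adjusted p = 1.48e-10 and 2.76e-07). TRNP, a mitochondrial tRNA, fell by 4.98 ± 0.18 (SE). All 13 mRNAs fell more in 2D, at a median of -3.54, and each difference between the effects passed the test. Poly-A selection decides which mitochondrial RNAs are kept, strand was not given for the kit, and nuclear copies of these genes can share reads, so TRNP cannot be told from transcripts of the opposite strand.

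**Figure D3:**
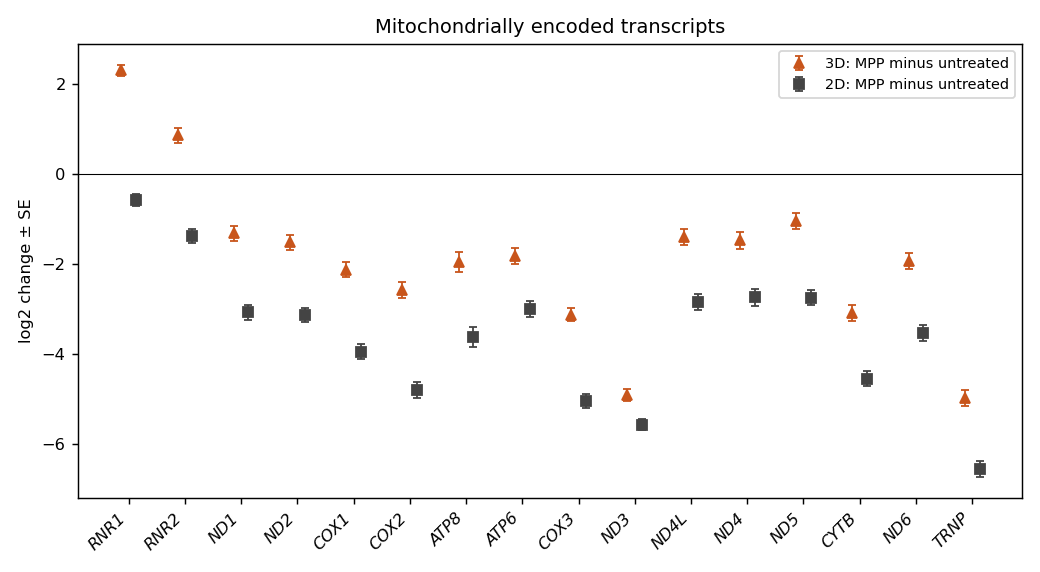
Log2 change with MPP ± SE from limma for the 2 rRNAs, 13 mRNAs and TRNP of the mitochondrial genome, in 3D (orange triangles) and in 2D (grey squares). In 3D the rRNAs lie above 0 and all others below, and in 2D all lie below 0.

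Of 35 nuclear complex I subunits of the respiratory chain, 9 fell and 2 rose, at a median of -0.12, where 17.6% of all genes fell and 17.0% rose. The members lower numbered 3 with equal library totals, and 4 without MPP replicate 1 or with only the 8 libraries fitted. Those higher numbered 1 without untreated replicate 2 or 3 or MPP replicate 2. NDUFV2, a core subunit, fell from 1607 ± 154 to 1234 ± 108, and NDUFB7, an accessory one, fell by 0.47. The core subunit NDUFS1 did not pass at -0.08. Of 42 subunits of complexes II to V, 11 fell and 2 rose (5 rose with equal totals and 1 without untreated replicates 1 and 3). Besides COX4I2, the ATP synthase subunits ATP5F1D and ATP5PB fell by 0.63 and fell by 0.47. Of 76 mitochondrial ribosomal proteins 11 fell and 6 rose, both below the shares over all genes, and with equal library totals these counts were 6 and 12.

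Upkeep and expression of mitochondrial DNA gave 7 higher and 5 lower of 31 genes (3 lower without MPP replicate 3), where 17.0% and 17.6% of all genes were. The nuclease MGME1 and the nucleotide reductase subunit RRM2B rose by 0.81 and 0.75, and the rRNA methyltransferase TFB1M fell by 0.57. TFAM, which packs mitochondrial DNA, and the polymerase POLRMT changed by 0.01 and 0.08 and did not pass. ELAC2, which cuts tRNAs out of mitochondrial transcripts, rose by 0.45. Citric acid cycle genes were more often higher, with 10 of 24 up and 2 down. The count rising was 17 with equal library totals, and the count falling was 1 without untreated replicate 1 or 4 or MPP replicate 2 or 4. Aspartate aminotransferase GOT1 and glutamate dehydrogenase GLUD1 rose by 0.79 and 0.56, citrate synthase CS rose by 0.32, and the malic enzyme ME3 fell by 0.76. For fatty acid oxidation 8 of 20 fell and 4 rose (5 fell with equal library totals). ETFB, which passes electrons from fatty acid oxidation to the chain, fell from 1112 ± 98.5 to 365 ± 35.7, and the dehydrogenase ACADM fell by 0.60. CPT1A, which admits fatty acids to mitochondria, did not pass at -0.12.

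Genes of the integrated stress response rose. Of 34 tested, 25 rose and 5 fell, at a median of 0.47, where 17.0% of all genes rose. DDIT3, the CHOP transcription factor, stood at 1589.9, 1295, 1677 and 1659 and with MPP at 6434, 5730.2, 4293 and 5846. ASNS, asparagine synthetase, went from 3036, 3028, 3162 and 3044 to 10205, 9776, 9604 and 9854. ATF5, a transcription factor of mitochondrial stress, rose from 392 ± 19.9 to 1425 ± 196, and TRIB3, a pseudokinase of the pathway, from 1415 ± 114 to 3921 ± 203. The groups overlapped in none of the 4, and their log2 changes were 1.83, 1.68, 1.85 and 1.47. ATF4 itself changed by 0.15 and did not pass (limma adjusted p = 0.0514). Over the alternatives its adjusted p ran from 0.00282, with equal library totals, to 0.179, without untreated replicate 2, and it passed in 6 of them.

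The hormones of mitochondrial stress were among the risers. FGF21 stood at 0, 2.35, 0 and 0 untreated and 37.9, 50, 69.5 and 61.7 with MPP, so 3 of the 4 untreated libraries had no read. GDF15 rose from 6257 ± 717 to 38886 ± 12339.8 (log2 2.59, limma adjusted p = 1.9e-12). The cystine carrier SLC7A11 rose by 1.94. Against the list's direction, DDIT4, an mTORC1 inhibitor, STC2, a secreted glycoprotein, and NDRG1, also a HIF target, fell by 0.34, fell by 0.59 and fell by 1.13. In 2D the 3 rose, by 1.28, 1.74 and 0.66, and each effect differed from that in 3D (limma adjusted p = 2.77e-09, 2e-09 and 4.09e-10).

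The next lists hold enzymes that ATF4 is known to raise, and the part of ATF4 in their changes was not tested. Of 18 serine, glycine and one-carbon genes 7 rose and 2 fell. PSAT1 and PHGDH of serine synthesis rose by 0.99 and 0.65, and the mitochondrial folate enzymes MTHFD2 and MTHFD1L rose by 1.15 and 0.78. SHMT2, the mitochondrial enzyme that splits serine to glycine, moved the other way. It stood at 4154, 4641, 4546 and 4636 and with MPP at 1828, 2186, 2047 and 2270.4, without overlap. In 2D it rose by 0.69, and the effects differed by -1.80 ± 0.11 (SE) (limma adjusted p = 9.1e-11). ASS1, argininosuccinate synthase, also fell by 1.06.

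Cytosolic aminoacyl-tRNA synthetases, which charge tRNAs with amino acids, gave 11 higher and 3 lower of 19 (1 lower with equal library totals). The alanine enzyme AARS1 stood at 7496, 7279.6, 7477 and 7632 and then 31152, 24342, 19169.8 and 25856. SARS1 (serine) and YARS1 (tyrosine) rose by 1.27 and 1.04. Of 16 mitochondrial synthetases 3 rose and 2 fell, and leaving out any 1 library except untreated replicate 3 or MPP replicate 4 left 0 or 1 that fell. The CHOP-ATF4 composite element was searched as TGATGNAA, N being any base, on both strands. It was in 3.67% of all windows and 1.81% of those of tested genes. Of the risen genes with a window, 6 of 22 in the stress response list (27.3%) and 5 of 9 cytosolic synthetases (55.6%) held it. In the same 2 lists 0 of 4 and 0 of 2 fallen genes held it, and 0 of 3 and 1 of 5 (20%) that did not pass. Of the risen serine, glycine and one-carbon genes 1 of 6 (16.7%) held it. The stretches are shown for 3 risen genes that hold it, and capitals mark the element, which reads TTGCATCA where it lies on the other strand.
ASNS (chr7:97872449-97872496, minus strand): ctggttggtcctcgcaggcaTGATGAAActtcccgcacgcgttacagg
CHAC1 (chr15:40953242-40953289, plus strand): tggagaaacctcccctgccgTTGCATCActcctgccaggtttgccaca
AARS1 (chr16:70289666-70289713, minus strand): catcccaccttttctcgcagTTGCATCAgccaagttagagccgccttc
CHAC1, an enzyme that degrades glutathione, rose by 0.60 ± 0.14 (SE), less than its rise of 2.40 in 2D (limma adjusted p of the difference = 8.37e-07).

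Sterol synthesis genes rose by less than in 2D. Of 25, 18 rose and 1 fell, at a median of 0.52 against 1.36 in 2D. For 21 of them the effect in 3D was lower by the test of the difference, against 8.32% of all genes tested. MSMO1, an enzyme of the late steps, stood at 2099.8, 2773, 2874 and 2507 and with MPP at 5451, 4882, 4700.3 and 5099, without overlap (log2 0.98). HMGCS1, of an early step, rose by 0.69, and SREBF2, which encodes the sterol-sensing transcription factor, rose by 0.33. TM7SF2, a sterol reductase, fell by 0.88. A sterol element, searched as TCACNCCAC, was in 1 of 13 risen members with a promoter window (7.69%), against 1.07% for tested genes. Of other genes with a window, 1 of 17 fallen glycolysis genes (5.88%) and 1 of 22 risen stress response genes (4.55%) held it. Among low-oxygen genes it was in 0 of 20 that fell and 1 of 7 that did not pass (14.3%). It was in 0 of 9 risen cytosolic synthetases and 0 of 6 risen serine, glycine and one-carbon genes. Fatty acid synthesis gave 7 higher and 2 lower of 17. FASN, fatty acid synthase, and SCD, a desaturase, rose by 0.57 and 0.27. The count lower was 1 without untreated replicate 3 or without MPP replicate 1, 2 or 4. Of 12 cholesterol efflux genes 3 rose and 2 fell, among them the lysosomal cholesterol carrier NPC2, which rose by 0.74, and MYLIP, a ubiquitin ligase, which fell by 0.79.

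Of 30 S phase genes 13 rose, 2 fell and 15 did not pass, at a median of 0.35. MCM6, a subunit of the replicative helicase, stood at 1326, 1313, 1335 and 1198 and with MPP at 1826, 2078, 2853 and 1894. RFC4, of the clamp loader, rose from 604 ± 81.3 to 926 ± 41.5. RRM2, the regulated subunit of ribonucleotide reductase, and FEN1, a flap nuclease, fell by 0.81 and fell by 0.33, the latter a call that 2 alternatives lost at up to 0.071. PCNA changed by -0.03 and did not pass. The MPP libraries differed among themselves. The median over the list, relative to the untreated mean, was -0.02, 0.39, 0.67 and 0.24 in log2, and without MPP replicate 1, the lowest, 21 members rose and 1 fell.

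Of 30 G2 and mitosis genes 2 fell and 0 rose, so 28 did not pass. MKI67, a nuclear protein of cycling cells, stood at 2350.0, 2576, 2373 and 2767 and with MPP at 1026, 1395, 2222 and 1824 (log2 -0.69, limma adjusted p = 0.00217). The other was KIF20A (-0.36), a call that 13 alternatives lost. Here the MPP libraries spread from -0.49 in replicate 1 to 0.31 in replicate 3. Without MPP replicate 3, 11 members fell. Without MPP replicate 1, 1 fell and 1 rose, and 1 fell without MPP replicate 2 or 4 or without untreated replicates 1 and 3. In 2D all 30 members of each list fell. The effect in 3D was higher by the test of the difference for 30 of 30 S phase genes and 28 of 30 G2 and mitosis genes, against 7.0% of all genes tested.

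**Figure D4:**
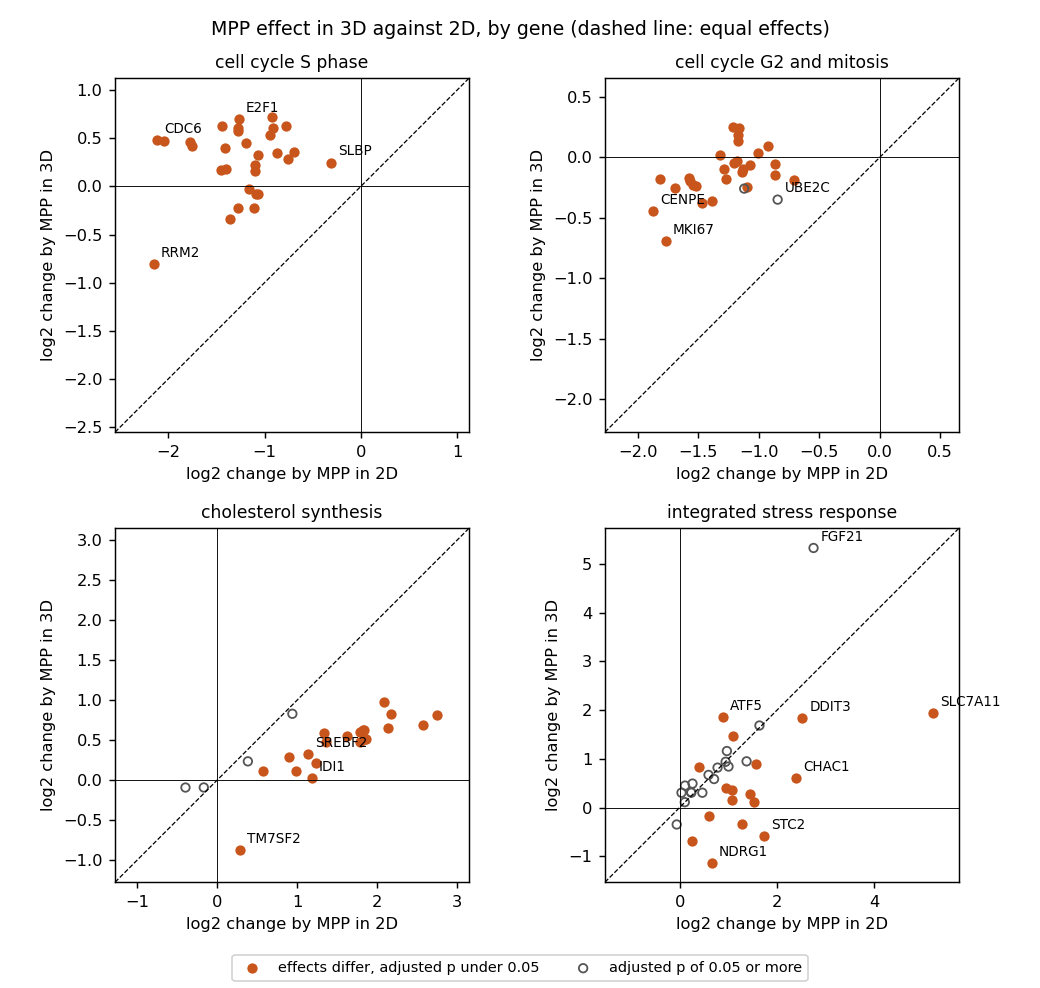
Log2 change with MPP in 2D (horizontal) and in 3D (vertical) for the genes of 4 lists, 1 point a gene. Filled points passed the test of the difference between the effects. S phase, G2 and mitosis genes lie above the dashed line of equal effects, and most cholesterol synthesis genes lie below it.

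Among cyclins and kinase inhibitors 3 of 18 rose and 3 fell, both close to the shares over all genes (5 fell without untreated replicate 4 or MPP replicate 1). CCND1, the cyclin that starts G1, fell from 16638 ± 930.4 to 7322 ± 2106. The inhibitor CDKN1A (p21) rose from 4168 ± 276 to 8451 ± 814, while CDKN1C (p57) stood at 3369, 4625, 2647 and 5155 and then 780.2, 645, 394 and 550.3. MYCN, the neuroblastoma oncogene, fell by 1.12. Of 10 replication-dependent histone genes 5 fell and 1 rose (3 fell without untreated replicate 4 or MPP replicate 4). H2BC12 fell by 2.07, and since these mRNAs mostly lack poly-A tails, the relation of these reads to total histone mRNA was not tested.

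The p53 family list held 16 risers and 4 fallers of 30 (2 fallers without untreated replicate 4). TP73, a p53 relative, stood at 651, 562, 425 and 805 and with MPP at 4532, 4498, 3237 and 3247. In 2D its change was 0.27 and did not pass, and the effects differed by 2.41 ± 0.23 (SE) (limma adjusted p = 8.75e-08). The death receptor TNFRSF10B and the BH3-only gene BBC3 rose by 0.63 and 0.96. The kinase PLK2 and the antiproliferative BTG2 fell by 1.04 and fell by 0.59. MDM2, which degrades p53, changed by 0.14 and did not pass, except with equal library totals. Of 21 apoptosis genes 3 rose and 2 fell, both under the share over all genes. BID, BCL2L11 and BMF, which promote cell death, rose by 0.39, 0.33 and 0.25. MCL1, which protects from it, fell by 0.34. The count of fallers was 5 without MPP replicate 3 and 1 without untreated replicate 2 or MPP replicate 1, 2 or 4.

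Other stress pathways were mixed. In the endoplasmic reticulum list 6 of 23 rose and 5 fell, against 3 and 16 in 2D. For 12 the effect in 3D was higher, against 7.0% of all genes tested. HYOU1 and HERPUD1 rose by 0.34 and 0.42, the ubiquitin ligase SYVN1 fell by 0.48, and XBP1 did not pass at 0.05. Of 17 cytosolic heat shock genes 7 fell and 2 rose, and the co-chaperone DNAJB1 fell by 0.67. Of 23 mitochondrial stress and protease genes 6 rose and 3 fell (1 fell without untreated replicate 4). Among the risers were GDF15, FGF21 and ATF5, all given above, and ATF5 also stands in the integrated stress response list. FIS1, a fission factor, fell by 0.44, and the chaperone HSPD1 did not pass at -0.08.

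NRF2 and glutathione genes gave 12 higher and 8 lower of 33 (5 lower without untreated replicate 2, 3 with equal library totals). The quinone reductase NQO1 stood at 104, 110.4, 150.2 and 155 and with MPP at 202, 294, 335 and 303. The transketolase TKT and the iron importer TFRC rose by 0.61 and 0.94, the peroxiredoxin PRDX1 fell by 0.46, and HMOX1, heme oxygenase, did not pass at -0.19. Autophagy and lysosome genes gave 10 higher and 3 lower of 30 (1 lower without untreated replicate 3 or 4 or MPP replicate 2). LAMP3, a lysosomal membrane protein, rose from 22.9 ± 8.33 to 235 ± 37.2. The autophagy adaptor SQSTM1 did not pass at -0.10. In the mTORC1 list 8 of 25 rose and 8 fell, 5 rising without untreated replicates 1 and 3. TXNIP, which curbs glucose uptake and is itself raised by glucose, stood at 29359.9, 29814, 31288 and 28889 and then 8478, 6896, 5366 and 8234, and its relative ARRDC4 fell by 1.33.

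Of 74 cytosolic ribosomal protein genes 6 fell and 2 rose. The count lower was 16 without untreated replicate 1 and 3 without untreated replicate 4 or MPP replicate 1 or 3, and the count higher was 5 without untreated replicate 4 and 1 without untreated replicate 2 or 3 or MPP replicate 3 or 4. Pseudogene copies can share their reads. Of 25 mitophagy and Parkinson genes 5 rose and 6 fell (3 rose without MPP replicate 2). Among the fallers was BNIP3, which also stands in the low-oxygen list. SNCB, beta-synuclein, fell from 879 ± 75.7 to 328 ± 63.2, and the autophagy receptor OPTN rose by 0.56.

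Catecholamine genes changed step by step in different directions, 4 of 19 upward and 6 downward. TH, the rate-limiting enzyme of dopamine synthesis, stood at 5845, 5119, 4759 and 6616 and with MPP at 4503, 4264, 4269 and 3927 (log2 -0.39, limma adjusted p = 0.00661). DDC, which makes dopamine from L-DOPA, stood at 13558, 13830.1, 14346 and 14838 and then 2166, 2994, 3598 and 2646. In both genes all MPP libraries were below all untreated ones, and the log2 change of DDC was -2.33. In 2D TH rose by 0.79, and the effects differed (limma adjusted p = 5.52e-06). GCH1, which starts synthesis of the TH cofactor, rose by 0.41 ± 0.08 (SE). DBH, which turns dopamine into noradrenaline, fell from 115058 ± 8759 to 94225 ± 9934, a call lost with equal library totals, at 0.0722.

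The 2 vesicular monoamine transporters, which load amines into vesicles, moved apart. SLC18A1, the endocrine form, stood at 31306, 31852, 32505 and 34919 and with MPP at 4261, 5078, 5616 and 4827. SLC18A2, the neuronal form, stood at 3267, 2929.5, 3279.8 and 3039.7 and with MPP at 5177, 5977, 7211 and 5664. Neither gene overlapped between groups, with log2 changes of -2.73 and 0.93. CYB561, which supplies electrons to DBH in the vesicle, fell by 0.87, and ALDH2, which clears dopamine's aldehyde, rose by 0.56. SLC29A4, the plasma membrane monoamine transporter that carries MPP, stood at 18888, 17971, 19175 and 19961 and then 7811, 8459, 8576 and 8264. SLC6A2, the noradrenaline transporter, changed by 0.06 and did not pass. Of the 8 organic cation transporters 2 rose and 2 fell (1 fell without MPP replicate 1 or 3), and the efflux carrier SLC47A1 rose by 1.39.

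**Figure D5:**
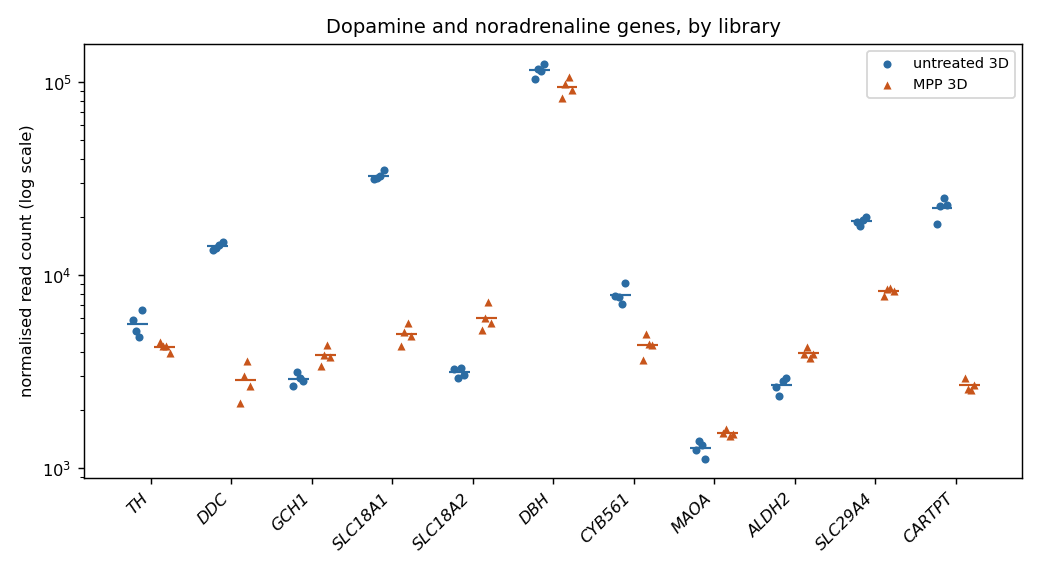
Normalised read counts on a log axis for 8 genes of dopamine and noradrenaline synthesis, storage and breakdown, CYB561, the MPP carrier SLC29A4 and the peptide gene CARTPT, with 1 point a library (untreated 3D blue circles, MPP 3D orange triangles) and a bar at each group's mean. SLC18A1 lies lower and SLC18A2 higher with MPP, in all 4 libraries.

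The transcription factors of the noradrenergic state split as well, 7 of 20 upward and 8 downward (4 upward without untreated replicates 1 and 3). HAND1, HAND2 and ISL1 fell by 1.06, fell by 0.58 and fell by 0.71. INSM1, a neuroendocrine factor, stood at 663, 646, 755 and 739.8 and with MPP at 75.8, 105, 167 and 107. PHOX2A and TBX2 rose by 0.37 and 0.61, and GATA3 did not pass at -0.15 (it fell without MPP replicate 3). Of 5 midbrain dopamine factors tested, 1 fell, PITX3, from 76.8 ± 7.76 to 38.6 ± 16.3, a call lost in 4 alternatives at up to 0.104, among them without untreated replicate 4 or MPP replicate 4. Leaving out untreated replicate 2 or 4 or MPP replicate 1 left 1 that rose. NR4A2, a regulator of the dopamine phenotype, was at 7.7 ± 3.18 and 6.79 ± 2.99.

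Among granins and neuropeptides 3 of 14 rose and 1 fell (2 fell without untreated replicate 4, and 1 rose without untreated replicates 1 and 3). CARTPT, a neuropeptide precursor, stood at 18346, 22741, 24964 and 23074 and with MPP at 2927, 2552, 2520.5 and 2694, without overlap (log2 -3.05, limma adjusted p = 2.67e-13). The neurotensin gene NTS rose by 1.29. CHGB, a granin, did not pass at 0.03.

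Neuronal structure genes were lower more often than higher, 8 against 3 of 23 (5 higher without MPP replicate 1, and 6 with equal library totals). MAP1B, a microtubule protein of growing axons, stood at 18036, 24152, 24407 and 19994 and with MPP at 9405, 7988, 11114 and 14009. TUBB3, neuronal beta-tubulin, fell from 20078 ± 1276 to 13408 ± 2153, and the neurofilament NEFH fell by 0.71. STMN2 and GAP43, both of growth cones, rose by 0.57 and 0.35. MAP2, of dendrites, was at 7649 ± 892 and 7216 ± 673 and did not pass. Synaptic vesicle genes mostly did not pass, with 4 of 26 lower and 2 higher (5 higher without untreated replicate 3, 4 without MPP replicate 3 and 9 with equal library totals). RAB3A, a vesicle GTPase, fell by 0.91, and PCLO, an active zone scaffold, rose by 0.88. Postsynaptic and adhesion genes gave 4 higher and 4 lower of 21 (7 higher with equal library totals), among them LRRTM2, a synaptic adhesion protein that fell by 1.58.

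Axon guidance genes gave 13 lower and 7 higher of 41. SLIT3, a repellent ligand, stood at 7602, 8318, 9473 and 7384 and with MPP at 2289.9, 2708, 3261 and 3025. SEMA3A, also a repellent, fell by 0.60, and the netrin receptor UNC5B rose by 0.98. Of 13 neurotrophin and GDNF genes 4 fell and 2 rose. NTRK2, the BDNF receptor, and GFRA2, the neurturin receptor, fell by 1.06 and fell by 1.95, and NGFR, the low-affinity neurotrophin receptor, rose from 5067 ± 243 to 11202 ± 2281.

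Sodium and calcium channel genes gave 7 lower and 4 higher of 26. CACNA1H, the pore of a T-type calcium channel, stood at 752, 714, 1107 and 698 and with MPP at 63.2, 45.5, 53.7 and 72.7. In 2D it rose by 2.57, and the effects differed by -6.34 ± 0.47 (SE) (limma adjusted p = 2.42e-09). The auxiliary subunit CACNA2D3 rose by 1.11. Of 26 potassium channels 8 fell and 4 rose. The calcium-gated KCNMA1 fell by 1.56, and KCNH2 rose by 0.41. For cAMP signalling 5 of 20 fell and 3 rose (3 fell without untreated replicate 2 or MPP replicate 2). ADCY8, a calcium-stimulated adenylyl cyclase, fell from 215 ± 61 to 6.59 ± 5.27, and the transcription factor CREM fell by 0.55.

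Immediate early genes, which answer activity and growth signals, were lower in 3D, with 12 of 23 down and 4 up, at a median of -0.37. FOS stood at 1263, 1316, 1510.1 and 909.8 and with MPP at 477, 381, 454 and 320.3. EGR1 and JUNB fell by 1.34 and fell by 1.25, and the orphan receptor NR4A1 rose by 1.15. In 2D 10 rose and 4 fell, and for 12 members the effect in 3D was the lower, against 8.32% of all genes tested. The inflammation list gave 4 higher and 5 lower of 16 (3 lower without untreated replicates 1 and 3). IL6, a cytokine, stood at 27.4, 37.6, 107 and 47.7 and then 3.61, 5.36, 0 and 3.68, while TNFAIP3, which restrains NF-kappaB, and the chemokine CCL2 rose by 1.18 and 1.13. Of 17 interferon and antigen genes 2 rose, OAS3 by 1.22 and NLRC5 by 0.76. In the same list 1 fell, IFIT3, at -1.44, a call that 9 alternatives lost, at adjusted p of up to 0.151, among them edgeR and leaving out untreated replicate 3 or 4 or any MPP replicate except 4.

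Metallothioneins bind zinc and copper, and of 9 genes in that list 6 fell and 0 rose. MT3, the brain form, fell from 282 ± 62.7 to 21 ± 7.64, MT1X fell by 1.26, and the zinc exporter SLC30A1, no metallothionein, stood at 588, 723, 690.5 and 491 and with MPP at 249, 232, 269.5 and 188. MT2A did not pass at -0.20 (it fell without untreated replicate 1). These close copies can share reads.

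Collagens and their enzymes gave 13 lower and 3 higher of 27. COL5A1 fell from 6354 ± 337 to 2011 ± 126, COL4A1 fell by 0.48, and the lysyl hydroxylase PLOD1 fell by 0.96, while the crosslinking enzyme LOXL4 rose by 1.09. P4HA1, P4HA2, PLOD2 and LOX stand in this list and in the low-oxygen list. Of 39 matrix and integrin genes 7 rose and 8 fell, close to the shares over all genes (17.0% and 17.6%). The protease inhibitor TIMP2 rose by 0.88, and the integrin ITGA2 fell by 0.67. Notch genes gave 7 lower and 0 higher of 15 (1 higher without untreated replicate 4). DLK1, a Notch ligand family member, stood at 606716, 659748, 695105 and 671779 untreated and 422973, 355556, 331792 and 368574 with MPP, and HEY1, a Notch target, fell by 1.45. Of 17 retinoic acid response genes 8 rose and 0 fell. DHRS3, which reduces retinal, rose by 0.93, and the receptor gene RARA rose by 0.54.

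Markers of other cells gave the following. Summed over 10 Schwann cell and glia markers in the table, the normalised count was 5702 to 6211 untreated and 9540.5 to 15242 with MPP, and NGFR alone went from 5067 ± 243 to 11202 ± 2281. Of the 8 tested 2 rose and 1 fell, 1 rising without untreated replicate 2 or MPP replicate 1 or 4. The defining marker SOX10 was at 0 in 6 of the 8 libraries and at 3.61 and 3.68 in MPP replicates 1 and 4. Of 11 mesenchymal neuroblastoma-state markers 4 fell and 0 rose (2 fell without untreated replicates 1 and 3), with sums of 14957 to 18218 and 14807 to 16331. PRRX1, the regulator of that state, was at 0 in 7 libraries and at 11.1 in MPP replicate 3. Fibroblast, endothelial and blood markers gave 2 higher and 3 lower of 10 (1 higher without untreated replicate 1 or 4 or MPP replicate 1, 3 or 4), with sums of 8418 to 8789.7 and 7535 to 8697. PECAM1 of endothelium and PTPRC of blood cells were at 0 in 6 and 7 of the 8 libraries and at most at 3.68 and 1.79. CDH5, also of endothelium, was at 0 in 5 libraries and at most at 11.9, in untreated replicate 4. KDR, a VEGF receptor of endothelium that is also in the VEGF list, stood at 97.1, 56.4, 92.6 and 35.8 and with MPP at 50.6, 21.4, 13.0 and 23.9. It fell by 1.40 with overlapping groups, and without untreated replicates 1 and 3 the call was lost (limma adjusted p = 0.197). The part of these cell markers in the changes of the VEGF receptors was not tested.

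The largest log2 changes among named genes with a mean of 50 or more and no overlap, unnamed loci and pseudogenes being passed over, included genes outside these lists. PIEZO1, a mechanically gated ion channel, stood at 16692, 15898, 15536 and 17680.4 and with MPP at 869.5, 732, 600.0 and 739, and its change in 2D was -0.15, which did not pass. ACTL8, an actin-like gene, had the deepest fall of all, from 812 ± 124 to 5.69 ± 6.2, and AQP10, an aquaglyceroporin whose promoter stretch is shown above, was the next named gene, from 859.8 ± 208 to 22.6 ± 13.6. The calpain CAPN8 and the adhesion protein OPCML fell by 4.78 and fell by 4.54. At the other end the antisense transcript CALML3-AS1 rose by 3.67, CHST15, which sulfates chondroitin, rose by 2.61, and the phosphatase INPP5D rose by 2.56. KLHDC7B, AKNA and the imprinted transcript COPG2IT1 rose by 2.53, 2.49 and 2.32. Without strand, CALML3-AS1 and COPG2IT1 cannot be told from transcripts that overlap them.

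Set against 2D, the effect of MPP in 3D differed for 2602 of the 16984 genes (15.3%), 1189 with the higher change in 3D (7.0%) and 1413 with the lower (8.32%). In 2D itself 2998 genes rose (17.7%) and 2868 fell (16.9%), and at 2-fold or more 686 rose (4.04%) and 398 fell (2.34%). With equal library totals 70.3% of the calls in 2D were upward against 51.1%, and with equal nuclear totals 66.9% of the called differences were higher in 3D against 45.7%. Of the genes that rose in 3D, 1375 rose and 168 fell in 2D, and of those that fell in 3D, 1327 fell and 166 rose in 2D. Outside the lists, the highest differences among such named genes included ZNF90 and MTFR2. PCLAF, which binds PCNA, changed by 0.16 in 3D and -2.39 in 2D. Among the lowest differences, PRDM16, a regulator of brown fat and neural progenitors, changed by -1.63 in 3D and 3.42 in 2D, and CROCC2, a ciliary rootlet relative, by -3.81 and 1.02. VEGFA rose by 0.79 in 2D where it fell in 3D, and the effects differed by -3.25 ± 0.13 (SE) (limma adjusted p = 5.45e-14). For glycolysis 17 of 21 members had the lower effect in 3D, and for the hypoxia list 23 of 32.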

How the data were processed

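Poly-A selected RNA was sequenced from 16 libraries, which were assigned to groups by their titles. The deposited values are a signal made by the authors: each gene's read count over the library's DESeq2 size factor. The submitters' processing notes name STAR and featureCounts, besides CASAVA 1.8.2, FastQC and DESeq2, and the build GRCh38.p13. Their settings were not given in the sources used here. Whole reads were recovered for 100.0% of the values within 0.01 reads. Genes with fewer than 11 reads over the 16 libraries are not analysed here. The reads carry no molecular identifiers and so are not independent molecules. No 2 replicates agreed within sampling noise (chi-square per degree of freedom 14.11 to 50.76), so none was taken for a repeat deposit of another.

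limma 3.58.1 in R 4.3.3 was fitted with a mean-variance trend to log2(value + 1) of all 16 libraries in 4 groups, for genes that reached a value of 10 in 4 or more libraries, and this scale understates changes of low genes. The MPP effect in 3D, that in 2D and their difference were adjusted by Benjamini-Hochberg over the 16984 genes. The mitochondrial share was compared with an exact permutation test. Alternatives changed the scaling, pseudocount, filter, variance model, libraries and test (edgeR 4.0.16 and DESeq2 1.42.0 on recovered reads), and the fits were tested on simulated data. Promoter sequences and other gene names came from RefSeq tables of GRCh38.p14, in which 19827 of 19898 genes were found.

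The 8 libraries and 58 gene lists were chosen with earlier results of these data known. Named genes are the 10 highest and 10 lowest without overlap between groups at a mean of 50 or more, key members of lists with the 3 of smallest p in each direction, the 8 highest and 8 lowest differences from 2D (unnamed loci and pseudogenes passed over in both), and TH, SLC18A2, MAP2 and MKI67, taken from these as space allowed, and some genes are not reported here. The remaining glycolysis genes, INSM1, ND5, RNR2 and SLC6A2 were named after their values were seen.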

Additional observations from a re-analysis of the deposited data

Results flagged for a closer look

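Among 444 sets of 4 values in the 3D groups, 20 held a library far from the other 3, 4.5% of them, where chance gives about 5%. Of these, 6 were untreated replicate 1, where the mitochondrial mRNA share was 6.8446% and the share of all mitochondrial RNA 7.9727%, each the highest of its group. It was also the highest for CYTB (198103.3), ND5 (138403.8), TRNP (2323.6) and VEGFA (46887.7). Without it the fall of the mitochondrial mRNA share kept its direction, from 3.68% to 1.245%. Untreated replicate 2 was the highest for FGF21 (2.35), replicate 3 for ASNS (3161.9) and CACNA1H (1107.3), and replicate 4 for BBC3 (614.5), while replicate 4 was the lowest for MCM6 (1197.7).

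A further 5 were MPP replicate 1, the lowest of its group for CHAC1 (1587.4), COX4I1 (4863.3), PHOX2A (41683.9) and PSAT1 (2735.0) and the highest for LOX (325.1). MPP replicate 3 was the lowest for BPGM (857.5) and ETFB (312.1) and the highest for RNR2 (452126.2). MPP replicate 2 was the highest for JUNB (1263.9).

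The effect of MPP differed between 3D and 2D, by the limma test of the difference, in 2602 genes. Among named genes with a mean of 50 or more, the highest differences in log2, 3D minus 2D, included ZNF90 (3.03), RNR1 (2.89), CDC6 (2.59), PCLAF (2.55), MTFR2 (2.54), CDC45 (2.52) and COPG2IT1 (2.49). The lowest were ACTL8 (-6.52), CACNA1H (-6.34), ADCY8 (-5.78), EPO (-5.64), CAPN8 (-5.29), FLT1 (-5.28), PRDM16 (-5.06) and CROCC2 (-4.84). The levels of these genes in 2D are not reported here. A gene that is low in untreated 2D has little room to fall there. The part of such low levels in these differences was not tested.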

How the results depend on the processing

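The count of genes changed in 3D was 5247 to 5717 when any 1 of the 8 libraries was left out, 4498 with only those 8 fitted, 5815 with edgeR, 6171 with DESeq2 and 6294 with equal library totals. Without untreated replicates 1 and 3, an alternative added after seeing the data, it was 4983, of which 4496 were among the 5879 (76.5%). Counts over all genes in 3D, in 2D and of the difference stayed within 1.5 times except for 2: with equal library totals 1846 genes were lower in 2D, and with equal nuclear totals 2128 had the higher effect in 3D (66.9% of called differences). Of the named genes, none reversed a call in the alternatives run.

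The replicate numbers did not pair the 3D samples, with correlations of same-numbered deviations from -0.038 to 0.071, and not every sample correlated best with its own number. With the replicate block 5706 genes were called by limma and 5605 by edgeR. The fall of the mitochondrial mRNA share, -3.226 percentage points, gave an exact sign-flip p of 0.125 over same-numbered pairs, the smallest that 4 pairs can give. The untreated libraries were the shallower, which limits genes of few reads there.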
